A study of Mus musculus with 5 samples.

Results

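The 10 genes described here, Flt3, Zbtb46, Ccr7, Ccl22, Ccl17, Irf4, Fscn1, Cd83, Il12b, and Il4i1, mark dendritic cells (DCs), most of them DCs in the mature state. They were measured in RNA-Seq libraries of bone marrow–derived macrophages (BMDMs) among 17018 genes with a count. The list was chosen from these data, because Ccr7, Ccl22, Irf4, and Il12b were higher together in one of the groups. The difference of these genes between the groups is therefore a description and carries no test, whereas genes outside the list were tested. The 5 libraries came from bone marrow of female BALB/c mice, aged 6 to 12 weeks per the methods, grown into BMDMs with 10 ng/mL M-CSF for 4 to 5 days. The BMDMs were cocultured for 48 hours, across a porous membrane, with the mouse mammary carcinoma line 4T1. In the WT group (n = 2) the 4T1 cells were unedited, and in the Adam17-/- group (n = 3) the gene for the membrane protease ADAM17 had been knocked out in the 4T1 cells with CRISPR/Cas9. The macrophages carried no deletion in either group. All 3 Adam17-/- libraries bear the designation of the same edited line, so that loss of Adam17 and other features of that line cannot be told apart. Whether the repeats of a group were separate cultures or animals is not stated, and the p-values then measure only the spread between these samples.

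DCs take up antigen in tissues and present it to T cells in lymph nodes. On maturation they take on CCR7, which guides them along lymphatic vessels, and they make chemokines and cytokines that attract and instruct T cells. Flt3 and Zbtb46 set the DC lineage apart from macrophages, which depend on the M-CSF receptor Csf1r. Several genes of the mature state, among them Ccl22, Irf4, and Il4i1, can also be induced in macrophages, for example by IL-4, so that none of them alone names a cell.

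The libraries held 14658694 to 20788373 counts, and 3 counts corresponded to 0.157 to 0.197 CPM (counts scaled to library size with TMM factors). The level of Adam17 itself does not check the labels, since the deletion was in the 4T1 cells and the RNA came from the macrophages. It lay at 197.5 and 199.6 CPM in the WT libraries and at 152, 164, and 161 CPM in the Adam17-/- libraries (edgeR, adjusted p = 0.0129). Markers of T and NK cells, B cells, and mast cells and basophils summed to at most 4.80, 4.74, and 3.75 CPM in any library, and Cd3g had 0 counts. Of the epithelial markers, Krt5 had 0 counts and Epcam, Krt8, Krt14, Krt18, and Cldn7 had 0 to 8. The list summed to 11.0 to 13.8 CPM, nearly all of it Cdh1. Neutrophil markers, in contrast, moved with the groups. Their sum was 381 to 478 CPM in the WT libraries and 1284 to 1469 CPM in the Adam17-/- libraries. Of the 11 markers, 10 rose (edgeR, adjusted p no higher than 0.05), beside 14.9% of all genes tested. Their log2 fold changes ran from 0.78 for Prtn3 to 2.18 for Ltf, with 1.73 for S100a9, the most abundant.

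Sequence upstream of the genes is shown for 4 members. Irf4 and Il12b were among the genes that the choice rested on, and Ccl22 and Ccl17 are neighbors on chromosome 8 that encode ligands of the same receptor. Each line gives the 250 bases before the start of a RefSeq transcript in GRCm38.p6, 5′ to 3′ on the strand of the gene. The window of Ccl17 lies inside the annotated gene (chr8:94809380-94812038), and the others lie just before the first base of theirs. Ccr7, for which no sequence is shown, lies at chr11:99144199-99155077, on the same chromosome as Il12b. Capitals mark a match to the STAT motif TTCNNNGAA.
Ccl22, chr8:94745434-94745683, plus strand: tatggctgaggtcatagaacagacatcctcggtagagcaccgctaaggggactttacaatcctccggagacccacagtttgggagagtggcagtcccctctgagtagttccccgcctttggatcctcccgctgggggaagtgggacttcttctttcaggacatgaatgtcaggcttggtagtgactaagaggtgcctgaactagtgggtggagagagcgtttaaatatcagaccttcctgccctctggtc
Ccl17, chr8:94810203-94810452, plus strand: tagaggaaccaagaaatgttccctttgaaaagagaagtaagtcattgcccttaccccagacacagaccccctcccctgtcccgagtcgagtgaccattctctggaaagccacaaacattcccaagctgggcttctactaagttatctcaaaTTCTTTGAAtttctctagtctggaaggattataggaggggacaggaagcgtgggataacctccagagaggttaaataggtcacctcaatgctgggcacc
Irf4, chr13:30748983-30749232, plus strand: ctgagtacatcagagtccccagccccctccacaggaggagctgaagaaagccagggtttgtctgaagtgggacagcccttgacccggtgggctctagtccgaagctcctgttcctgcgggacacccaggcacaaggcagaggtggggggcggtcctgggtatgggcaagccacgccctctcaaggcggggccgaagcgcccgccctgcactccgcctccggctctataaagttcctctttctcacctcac
Il12b, chr11:44399813-44400062, plus strand: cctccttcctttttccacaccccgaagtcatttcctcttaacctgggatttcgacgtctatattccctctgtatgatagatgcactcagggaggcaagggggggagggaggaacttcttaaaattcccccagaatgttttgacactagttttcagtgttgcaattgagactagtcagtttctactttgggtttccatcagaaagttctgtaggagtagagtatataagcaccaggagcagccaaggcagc

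The RefSeq promoter table covered 8 of the 10 members, and Ccr7 and Cd83 had no entry. In these windows, each extended by the 50 bases after the start, 5 motifs were searched on both strands. The same span was searched in all promoters. The 2 matches found lay in different windows. The STAT motif TTCNNNGAA, to which several factors of the STAT family bind, occurred upstream of Ccl17 at bases -99 to -91 from the start and in 8.30% of 32851 promoters. The AP-1 motif TGANTCA occurred in the window of Zbtb46 at bases -61 to -55 and in 7.81% of promoters. That window (chr2:181424389-181424638, minus strand) lies inside the annotated gene (chr2:181371009-181493262). The NF-kB motif GGGANNTTC, the interferon response core GAAANNGAA, and the ETS-IRF motif GGAANTGAA occurred in 0 of 8 member windows and in 3.94%, 8.56%, and 2.35% of promoters, respectively. The 8 windows therefore held no motif in common among those searched. Their 250 bases before the start also differed in base composition. G and C made up 46.0% upstream of Il12b to 63.6% upstream of Irf4, with a median of 52.4% over all promoters. A match is an exact run of letters, sites that depart from a motif were not searched, and binding was not measured.

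All 10 genes had counts, but they were rare transcripts in these macrophage cultures. In the WT libraries, FPKM (fragments scaled to transcript length and library size) ranged from a mean of 0.04 for Zbtb46 to 5.16 for Ccl22. The median member lay above 28.4% of all genes by this measure. A filter on low counts kept 12576 genes and 8 members, and Zbtb46 and Ccl17 did not pass it. The fitted change was positive for each of the 8 members, with a log2 fold change of Adam17-/- over WT of 0.39 to 2.57 and a median of 1.03, beside a median of 0.01 for all genes tested. In 8 of 10 members every Adam17-/- library was above both WT libraries, a pattern found in 28.4% of all genes tested; since the list was chosen on this contrast, nothing is read from that count. In bulk RNA, a different number of cells that express a gene and a different amount of RNA per cell cannot be told apart. The summed neutrophil markers differed between the groups in the same direction as the members, and their part in the values of the members and of the lists given further on was not tested.

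**Figure D1:**
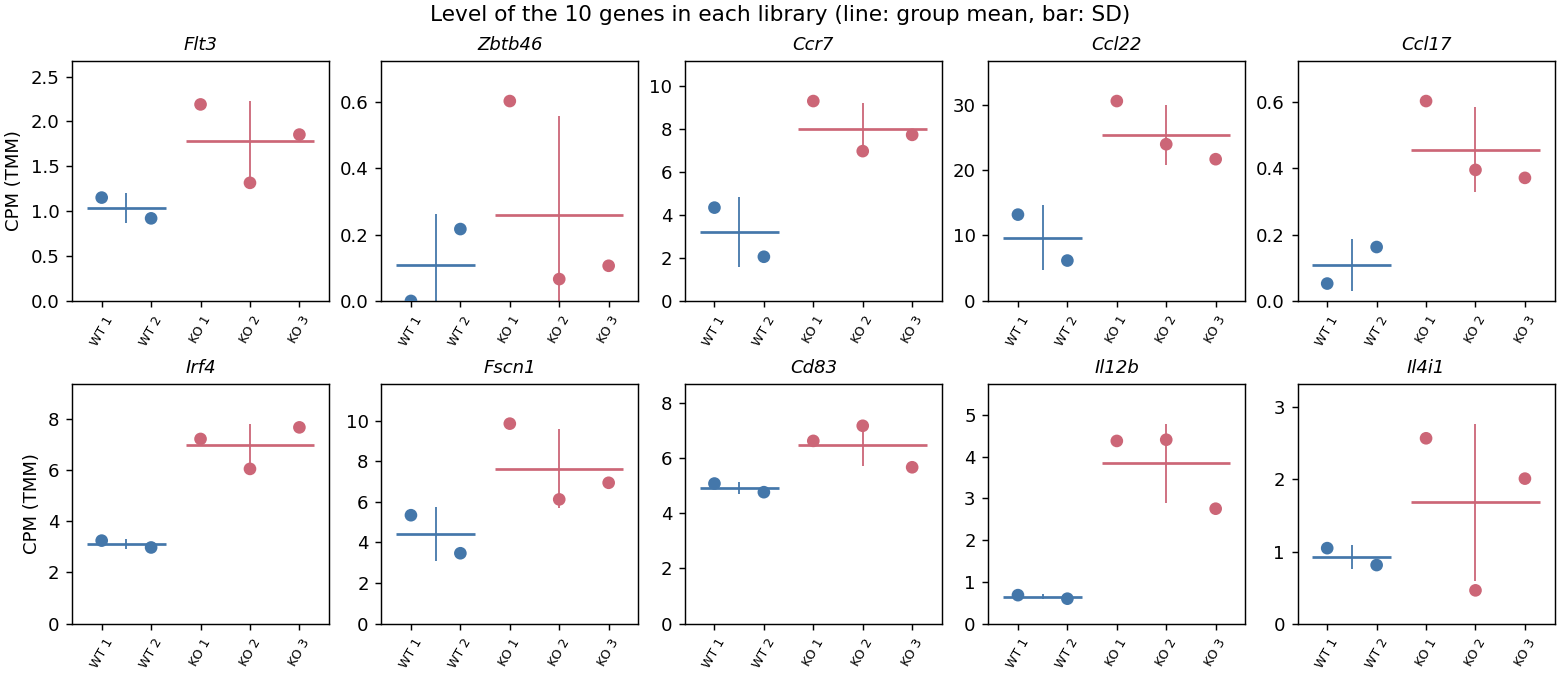
Each panel plots 1 member, with the library on the x axis (KO stands for Adam17-/-) and the level in TMM-scaled CPM on the y axis, starting at 0. Points are libraries, lines are group means, and bars are SDs, ending at 0 where they would pass below it. The 3 Adam17-/- points lie above both WT points in every panel except those of Zbtb46 and Il4i1.

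Il12b differed most among the 8 members. It encodes the p40 chain that pairs with p35 to form IL-12, which drives type 1 T cell responses, or with p19 to form IL-23. It stood at 0.680 and 0.595 CPM in WT, from 13 and 11 counts. In the Adam17-/- libraries it was 4.38, 4.41, and 2.75 CPM, from 80, 67, and 52 counts. The lowest Adam17-/- library was thus 4.05-fold above the higher WT library, and the WT libraries were close to each other. The fitted log2 fold change was 2.57 (SE 0.33), or 5.94-fold. The partner chains of p40 stayed low in both groups. Il12a, which encodes p35, had 12 and 7 counts in WT and 6, 10, and 5 counts in Adam17-/- libraries, with overlapping groups (edgeR, adjusted p = 0.676). Il23a, which encodes p19, had at most 5 counts in any library and was not tested. By FPKM, Il12b stood at 0.542 and 0.767 times Il12a in WT, and at 6.48, 3.30, and 5.09 times Il12a in Adam17-/- libraries. These ratios rest on the low counts of both genes and follow the difference in Il12b by which the list was chosen. Ebi3, which encodes a relative of p40, was far more abundant, at mean FPKM 31.9 in WT and 28.8 in Adam17-/- libraries (adjusted p = 0.085). Of the IL-12 receptor chains, Il12rb1, shared by the IL-12 and IL-23 receptors, fell by 1.62 on the log2 scale (SE 0.17, adjusted p = 0.000434), from 213 and 167 counts to 57, 45, and 70, with no overlap. For Il12rb2, the chain specific to IL-12, the log2 fold change was 0.25 (adjusted p = 0.541).

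Ccl22 was the most abundant member by FPKM in every library. It encodes the chemokine MDC, a ligand of CCR4 that draws regulatory and type 2 T cells. Its level was 13.2 and 6.17 CPM in WT and 30.5, 23.9, and 21.7 CPM in Adam17-/- libraries, from 114 to 558 counts. All 3 Adam17-/- libraries were high, but the WT libraries differed from each other by 2.14-fold, WT replicate 1 being the higher. The log2 fold change was 1.39 (SE 0.27), and it was 2.04 without WT replicate 1 and 0.94 without WT replicate 2. Ccl17, the other CCR4 ligand, was near the limit of detection. It had 1 and 3 counts in WT, not above the 3 counts taken as the floor, and 11, 6, and 7 counts in Adam17-/- libraries. Scaled to library size, the summed counts gave a ratio of 4.31, with an exact 95% interval of 1.48 to 17.1 that covers counting error only. By FPKM, Ccl22 exceeded Ccl17 by 69.3- and 10.3-fold in WT and by 13.7-, 16.3-, and 15.8-fold in Adam17-/- libraries, where the WT ratios rest on 1 and 3 counts of Ccl17. Between the 2 genes, which lie 57991 bases apart, sits Cx3cl1, the gene for fractalkine. Cx3cl1 gave overlapping groups, with 36 and 25 counts in WT and 32, 22, and 30 counts in Adam17-/- libraries (log2 fold change -0.02, adjusted p = 0.967). Ccr4, their receptor, had at most 6 counts in any library.

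Ccr7, the homing receptor of mature DCs, had a profile close to that of Ccl22. Its level was 4.34 and 2.06 CPM in WT and 9.30, 6.97, and 7.73 CPM in Adam17-/- libraries, from 38 to 170 counts. Here too the groups did not overlap, and WT replicate 1 exceeded WT replicate 2, by 2.11-fold. The log2 fold change was 1.32 (SE 0.27), and it was 1.96 without WT replicate 1 and 0.88 without WT replicate 2. The ratio of Ccl22 to Ccr7 by FPKM was 3.32 and 3.26 in WT and 3.59, 3.75, and 3.05 in Adam17-/- libraries, so that the WT libraries, 2.11-fold and 2.14-fold apart in the single genes, nearly coincided in the ratio. The ligands of CCR7, Ccl19 and Ccl21a, had 0 counts in all 5 libraries, which allows up to 0.157 to 0.197 CPM at this depth. In the body, stromal and lymphatic cells of lymph nodes make both ligands, and mature DCs also make CCL19.

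Irf4 had the least spread among the members that differed by 2-fold or more. It encodes a transcription factor that lymphoid and myeloid cells induce on activation and that type 2 conventional DCs need to migrate. Its level was 3.24 and 2.98 CPM in WT and 7.22, 6.05, and 7.68 CPM in Adam17-/- libraries, from 55 to 145 counts, with no overlap. The log2 fold change was 1.17 (SE 0.18), and leaving out each library in turn gave 1.11 to 1.28. Irf4 nevertheless remained a minor transcript beside Irf8, the related factor of macrophages and type 1 DCs. By FPKM, Irf4 was 0.00427 and 0.00424 times Irf8 in WT and 0.0116, 0.00950, and 0.0124 times Irf8 in Adam17-/- libraries. For Irf8 itself the log2 fold change was -0.23 (adjusted p = 0.0532), and Spi1, the gene for PU.1 with which IRF4 and IRF8 bind DNA, fell by 0.53 (SE 0.11, adjusted p = 0.00626).

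Flt3, the receptor of the DC growth factor FLT3 ligand, was higher in Adam17-/- libraries by a smaller margin. It had 22 and 17 counts in WT and 40, 20, and 35 counts in Adam17-/- libraries, or 1.15 and 0.920 against 2.19, 1.32, and 1.85 CPM. The groups did not overlap in CPM, but Adam17-/- replicate 2 lay only 1.14-fold above WT replicate 1. The log2 fold change was 0.79 (SE 0.32). Its ligand Flt3l gave overlapping groups, with a log2 fold change of -0.13 (adjusted p = 0.569). Zbtb46, the transcription factor that among myeloid cells marks conventional DCs, had 0 and 4 counts in WT and 11, 1, and 2 counts in Adam17-/- libraries. The groups overlapped, 2 of 3 Adam17-/- libraries were at or under the floor, and the ratio of summed counts was 2.51 (exact 95% interval, 0.789 to 10.5). Neither lineage gene therefore approached the level of a macrophage receptor. Csf1r exceeded Flt3 by FPKM 4668- and 5145-fold in WT, and 1739-, 3144-, and 2404-fold in Adam17-/- libraries.

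Fscn1 and Cd83 completed the group of members without overlap. Fscn1 encodes fascin, which bundles actin in the dendrites of mature DCs. Its level was 5.34 and 3.46 CPM in WT and 9.85, 6.12, and 6.94 CPM in Adam17-/- libraries, with WT replicate 1 again above WT replicate 2, by 1.54-fold. The log2 fold change was 0.80 (SE 0.25), and it was 1.14 without WT replicate 1 and 0.52 without WT replicate 2. The lowest Adam17-/- library stood 1.15-fold above WT replicate 1. Cd83, a surface protein that stabilizes MHC class II and CD86 on mature DCs, differed least. Its level was 5.08 and 4.76 CPM in WT and 6.62, 7.17, and 5.67 CPM in Adam17-/- libraries, a log2 fold change of 0.39 (SE 0.16). The WT libraries lay close together, and the lowest Adam17-/- library exceeded the higher of them by 1.12-fold. By FPKM Cd83 was the second member in WT, at a mean of 2.23 ± 0.0283 (SD, n = 2), and the third in Adam17-/- libraries, at 3.26 ± 0.389 (SD, n = 3).

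Il4i1, which encodes a secreted oxidase of phenylalanine and other aromatic amino acids, gave overlapping groups in the values as deposited. Its level was 1.05 and 0.812 CPM in WT and 2.57, 0.460, and 2.01 CPM in Adam17-/- libraries. The low value of Adam17-/- replicate 2 went with reads assigned to an overlapping RefSeq gene, Il4i1b. The expected counts of Il4i1 were 20.2 and 15 in WT and 47, 7.21, and 37.8 in Adam17-/- libraries, not whole in 3 of 5 libraries. Those of Il4i1b were 18.8 and 0 in WT and 0, 25.8, and 12.2 in Adam17-/- libraries. Their sums were whole in every library, at 39, 15, 47, 33, and 50. With both summed, a choice made after these values were seen, the level was 2.04 and 0.812 CPM in WT and 2.57, 2.17, and 2.65 CPM in Adam17-/- libraries. The groups then no longer overlapped, WT replicate 1 was close to the Adam17-/- libraries, and the log2 fold change was 0.78 (SE 0.35) in place of 0.88 (SE 0.55). For Il4i1 alone it was 0.49 without Adam17-/- replicate 1 and 1.31 without Adam17-/- replicate 2. The other 9 members had whole counts in every library, within 0.02.

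**Figure D2:**
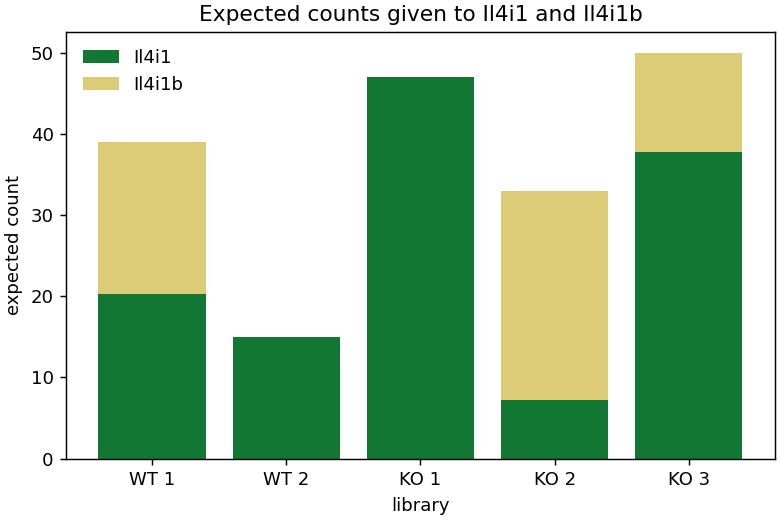
Stacked bars give the expected count, on the y axis from 0, assigned to Il4i1 and to Il4i1b in each library on the x axis (KO stands for Adam17-/-). In KO replicate 2 most of the sum of 33 was assigned to Il4i1b, and in WT replicate 2 and KO replicate 1 none was.

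The 2 WT libraries differed in several members beyond what was usual for these libraries. Over all genes tested, the log2 ratio of WT replicate 1 to WT replicate 2 had a median of 0.04, and its 5th and 95th percentiles were -0.52 and 0.59. Ccl22, Ccr7, and Fscn1, at 1.08, 1.04, and 0.61, were above that range. The other 5 members tested, from 0.09 for Cd83 to 0.33 for Il4i1, were inside it. All 8 were higher in WT replicate 1, but no Adam17-/- library was as low as WT replicate 1 in Ccl22 or Ccr7, where the lowest stood 1.64-fold and 1.61-fold above it. The summed levels of the marker lists of other cell types were also higher in WT replicate 1, except that of plasmacytoid DCs, at 255 against 273 CPM.

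**Figure D3:**
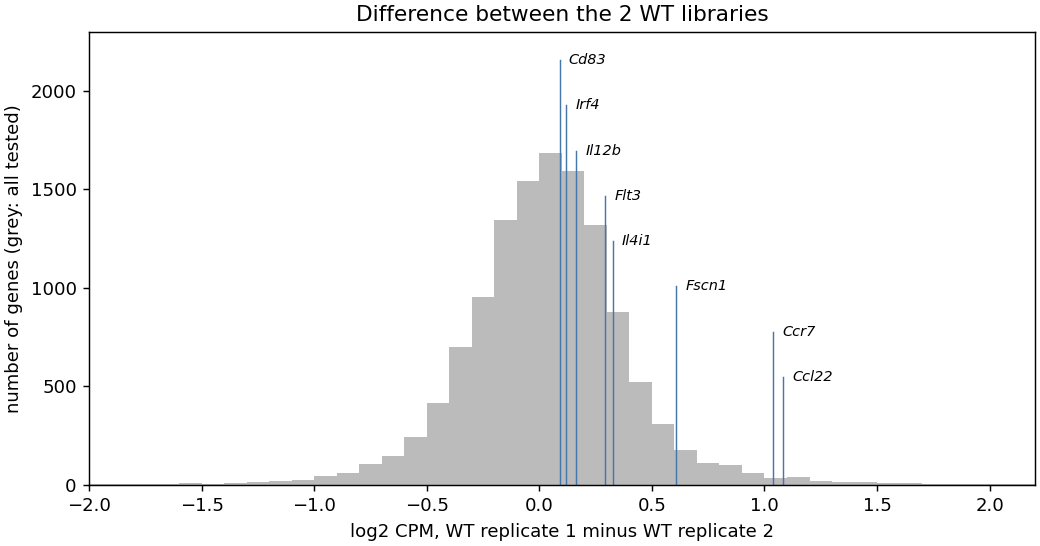
The histogram counts all genes tested (y axis) by the difference in log2 CPM between WT replicate 1 and WT replicate 2 (x axis), and lines of arbitrary height mark the 8 members tested. Ccr7 and Ccl22 lie near 1, beyond most of the histogram, and Cd83, Irf4, and Il12b lie near its center.

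Genes with a profile like the members' were sought among the other 11746 genes with a mean of at least 1 CPM. The measure was the root-mean-square difference of centered log2 CPM, over the 5 libraries, from the mean profile of Ccr7, Ccl22, Irf4, and Il12b. The 5 nearest were Adam19 at 0.0811, Kcnn3 at 0.0863, Nr4a3 at 0.0872, Crispld2 at 0.107, and Padi4 at 0.117. Adam19 encodes another membrane metalloprotease of the ADAM family and had 201 and 138 counts in WT and 557, 442, and 496 counts in Adam17-/- libraries. Kcnn3 encodes a calcium-activated potassium channel, Nr4a3 a nuclear receptor needed for migration of DCs, and Padi4 an enzyme that citrullinates histones in neutrophils. Among the 4 genes themselves Ccl22 was nearest to their mean, at 0.171. None of the 5 belongs to the genes of mature DCs listed next.

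A wider list held 56 other genes of mature DCs. It was written with results of these data known, and 47 of its genes were tested. By edgeR, 13 rose and 8 fell (adjusted p no higher than 0.05; 17 and 5 when scaled to library size alone), and 26 did not pass. Over all genes tested, 14.9% rose and 16.8% fell at that threshold. The list's median log2 fold change was 0.07, against 0.01 for all genes. With a fold change of at least 2 required as well, 2 genes were called higher and 1 lower, against 3.36% and 0.867% of all genes, or 422 and 109 genes (639 and 57 when scaled to library size alone). Over this list and the 4 described after it, 58 genes passed in either direction, and 23 of them did not pass when 1 of the libraries was left out.

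Costimulators and checkpoint ligands split within the list. Of 9 tested, 3 rose and 2 fell, beside 14.9% and 16.8% of all genes. Cd274, the gene for PD-L1, rose from 4601 and 4321 counts to 8497, 6935, and 8342, a log2 fold change of 0.94 (SE 0.08, adjusted p = 0.000203). Pdcd1lg2, the gene for PD-L2, rose by 1.06 (SE 0.23, adjusted p = 0.00816), and Tnfrsf9, the T cell costimulatory receptor 4-1BB, by 0.71 (adjusted p = 0.0418). Both ligands of the inhibitory receptor PD-1 were thus higher. Cd80, a ligand of CD28, fell by 0.63 (SE 0.13, adjusted p = 0.00763), and Tnfsf9, the ligand of 4-1BB, by 0.51 (adjusted p = 0.0118). Cd86 and Cd40, which are classical signs of maturation, had log2 fold changes of 0.16 (adjusted p = 0.219) and -0.09 (adjusted p = 0.811).

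NF-kB subunits and targets carry the maturation signal in DCs. Of 9 such genes, 0 rose and 3 fell past the threshold, beside 14.9% and 16.8% of all genes. Nfkb2, the gene for the p100 precursor, fell by 0.55 (adjusted p = 0.0123), Nfkb1 by 0.28 (adjusted p = 0.0368), and Bcl2l1, the survival factor Bcl-xL, by 0.81 (SE 0.10, adjusted p = 0.000711). For Relb, the subunit most tied to DC maturation, the value was -0.27 (adjusted p = 0.115). Bcl2a1b, an inhibitor of cell death with near-identical copies in the genome, was one of the most abundant genes of the wider list and had a value of 0.03 (adjusted p = 0.78). Of 9 cytokines, chemokines, and cytokine receptors tested, Ccl5, a chemokine for T cells, rose by 0.79 (adjusted p = 0.00642), and Il15ra, which presents IL-15 to lymphocytes, rose by 0.47 (adjusted p = 0.0195). Crlf2, the receptor for TSLP, fell by 0.55 (adjusted p = 0.0359). The remaining genes of the mature state included most of those that rose. Of 20 tested, 8 rose and 2 fell, beside 14.9% and 16.8% of all genes. Slco5a1 rose by 1.65 (SE 0.45, adjusted p = 0.0221) from only 5 and 6 counts to 22, 13, and 14, and this call was lost under 6 other settings, DESeq2 among them. Socs2, an inhibitor of cytokine signaling, rose by 0.92 (SE 0.10, adjusted p = 0.000485), and Net1, an activator of RhoA, by 0.90 (adjusted p = 0.00188). Marcksl1, an actin-linked protein, fell by 1.18 (SE 0.08, adjusted p = 0.000115) with no overlap. Eno2, a glycolytic enolase, rose by 0.50 (adjusted p = 0.018), and by mean FPKM it stood below Bcl2a1b in WT, at 119.6 against 142, and above it in Adam17-/- libraries, at 188 against 161.

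**Figure D4:**
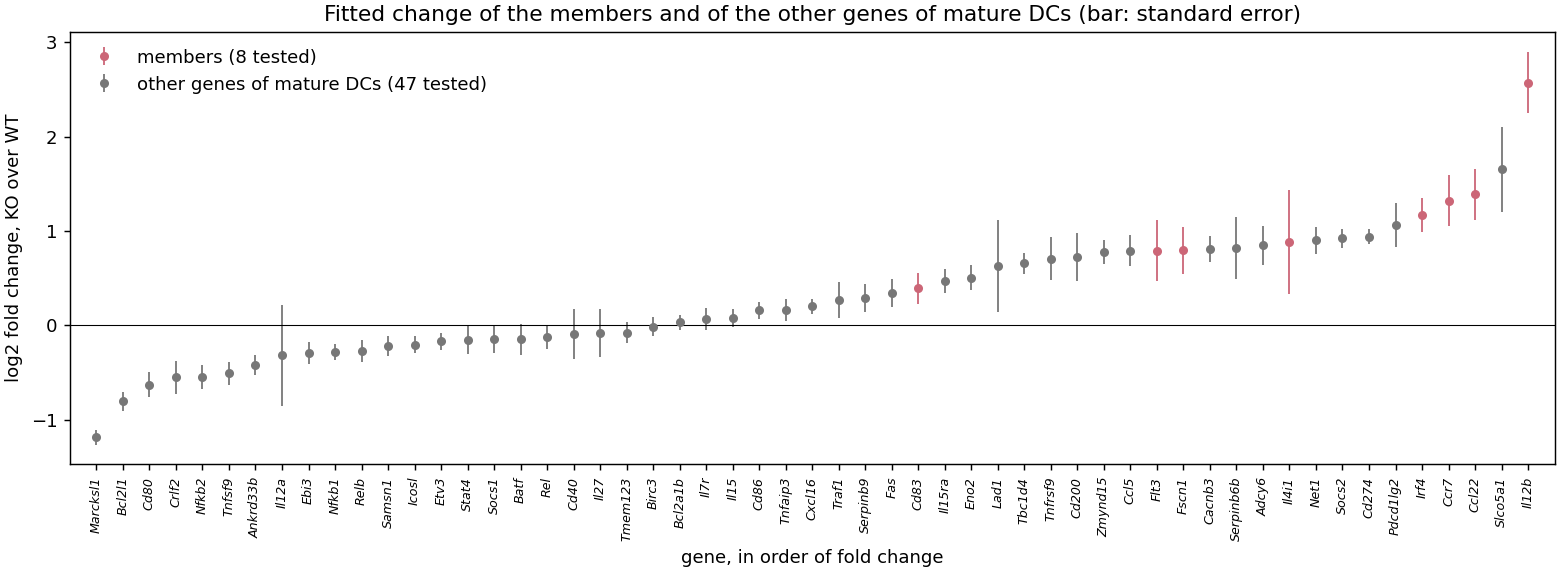
The fitted log2 fold change of Adam17-/- over WT (y axis; points, with SEs as bars) is plotted for the 8 members and 47 other genes of mature DCs in rising order (x axis; KO stands for Adam17-/-). All 8 members lie above 0, which their choice favors, while the other genes spread on both sides of 0.

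Of 27 identity genes of conventional DCs, 23 were tested, 4 rose, and 6 fell (8 and 4 when scaled to library size alone), beside the 14.9% and 16.8% of all genes. Their median log2 fold change was 0.08. At the 2-fold limit, 3 genes were called higher. Clec9a, the receptor with which type 1 DCs sense dead cells, rose from 51 and 42 counts to 142, 87, and 109, by 1.38 (SE 0.21, adjusted p = 0.00176). Cd24a, which neutrophils also carry, rose by 1.26 (SE 0.15, adjusted p = 0.000754), and Esam, a marker of a type 2 subset, by 1.16 (SE 0.27, adjusted p = 0.0101). Itgax, the gene for CD11c, rose by 0.78 (SE 0.23, adjusted p = 0.0298). Klf4, Clec10a, Clec4a2, Wdfy4, Cadm1, and Notch2 fell, from -0.89 for Klf4 to -0.24 for Notch2. Genes of the type 1 subset differed widely in level. Xcr1 stood at mean FPKM 0.63 and 1.03 in WT and Adam17-/- libraries (adjusted p = 0.0584) and Batf3 had no more than 9 counts, whereas Irf8 and Cadm1 stood at mean FPKM 149 and 109 in WT. The whole list summed to 3662 to 4061 CPM in WT and 3169 to 3344 CPM in Adam17-/- libraries. Its most abundant genes, such as Sirpa at mean FPKM 443 in WT, are also expressed by macrophages. Markers of plasmacytoid DCs summed to 255 to 273 CPM in WT and 267 to 293 CPM in Adam17-/- libraries, with 0 of 4 tested past the threshold in either direction. Nearly all of that sum was Tcf4 and Bst2, and Siglech, Klk1, Ly6d, and Cox6a2 had 0 to 4 counts. Progenitor markers summed to 15.5 to 24.3 CPM in WT and 12.7 to 22.6 CPM in Adam17-/- libraries, and 2 of 5 tested rose, Kit 2.14-fold (adjusted p = 0.0471) and Hlf 3.61-fold (adjusted p = 0.0288). Neither held without WT replicate 2, at adjusted p = 0.207 and 0.125, respectively.

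The libraries had the profile of macrophages throughout. All 20 macrophage identity genes were expressed, and their sum was 64070 to 74151 CPM in WT and 49769 to 55469 CPM in Adam17-/- libraries. The members summed to 22.1 to 34.1 CPM and 56.8 to 73.9 CPM, respectively. None of the 20 rose, and 14 fell, beside 14.9% and 16.8% of all genes. The median log2 fold change of the 20 was -0.54. Cd163, the hemoglobin scavenger receptor, fell by 1.52 (SE 0.15, adjusted p = 0.000372), Mrc1, the mannose receptor CD206, by 1.28 (SE 0.09, adjusted p = 0.000145), and Siglec1, the lectin CD169, by 1.08 (SE 0.13, adjusted p = 0.00069). Apoe and Lyz2 were the most abundant, and Lyz2 fell by 0.65 (adjusted p = 0.00148), whereas the value for Apoe was -0.25 (adjusted p = 0.173). These levels match the labelled cell type. No population of mature DCs is named from these data, in which Zbtb46 was near the floor, and whether such cells were present was not tested.

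**Figure D5:**
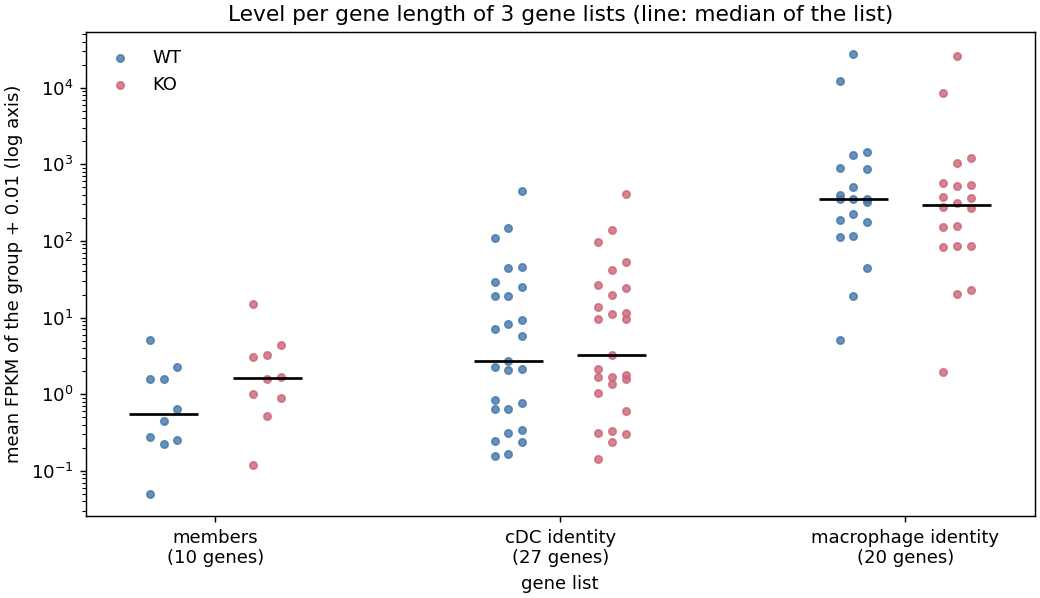
Points are genes, placed by their mean FPKM in a group plus 0.01 (y axis, log scale), for the members, the conventional DC identity genes, and the macrophage identity genes (x axis). Blue marks WT and red marks KO, which stands for Adam17-/-, and lines are medians. By median, the members lie lowest and the macrophage genes highest in both groups, and the lists overlap in range.

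MHC class II molecules, with which mature DCs present antigen to helper T cells, had abundant RNA in both groups. Of 7 genes, 2 rose and 1 fell (4 and 0 when scaled to library size alone), beside 14.9% and 16.8% of all genes. Ciita, the master regulator of the class II genes, rose by 0.68 (SE 0.10, adjusted p = 0.00162), from 503 and 417 counts to 735, 574, and 741, and H2-Aa, an alpha chain, by 0.33 (adjusted p = 0.0478). H2-DMa, which helps to load peptides, fell by 0.43 (adjusted p = 0.0159). H2-Ab1, H2-Eb1, H2-DMb1, and Cd74, the last of these the most abundant at mean FPKM 2085 in WT, did not pass the test.

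Among the 36 genes of the pathways that act with the members, 28 were tested, 2 rose, and 9 fell (4 and 3 when scaled to library size alone), with a median log2 fold change of -0.21. Il12rb1, given above, was the only one called at the 2-fold limit. In the IL-4 and GM-CSF pathways, whose cytokines induce Irf4, Ccl17, and Ccl22 in macrophages and DCs, Il13ra1, a subunit of the type II IL-4 receptor, rose by 0.58 (SE 0.13, adjusted p = 0.0101) and the kinase gene Jak2 by 0.41 (adjusted p = 0.0166). Il4ra, the shared IL-4 receptor chain, fell by 0.39 (adjusted p = 0.0136) and Il2rg, the common gamma chain, by 0.63 (adjusted p = 0.00388), and Jak1 and Stat5a fell as well. For Stat6, the factor downstream of IL-4, the log2 fold change was -0.13 (adjusted p = 0.24). Csf2rb and Csf2rb2, the beta chains of the GM-CSF receptor, were the most abundant genes of these pathways, at mean FPKM 659 and 358 in WT, and had values of -0.26 (adjusted p = 0.0523) and -0.19 (adjusted p = 0.113). Csf2, the gene for GM-CSF, had 1 count over all 5 libraries. Of the factors that bind DNA with the members' regulators, Spi1, Irf5, Ikzf1, and Nfkb1 fell and none of the 10 tested rose. Over all genes, 16.8% fell and 14.9% rose.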

How the data were processed

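Libraries of poly-A RNA from 5 BMDM samples were grouped by their labels. The authors sequenced them (paired-end, 150 bp) and, per the labels, used Bowtie2 and RSEM with mm10, while the methods name HISAT for alignment to GRCm38, with Bowtie2; the tool behind the counts is thus uncertain, and versions are not given in the sources used here. For every transcript the authors deposited a raw expected count and an FPKM, which is scaled to length and depth. Both were summed per Entrez gene; 17015 of 17058 IDs matched a RefSeq symbol. Rounded counts entered edgeR 4.0.16 (R 4.3.3; filterByExpr, TMM, and quasi-likelihood test, no covariates). Benjamini-Hochberg adjustment ran over 12576 genes, with a threshold of 0.05 to pass and a log2 fold change of at least 1 either way to be called. Intervals and the floor of 3 counts cover counting error only.

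The members and lists were chosen with earlier results of these data known. Named were all members, the called genes and 2 most abundant of the lists of mature DC, DC identity, macrophage, MHC class II, and partner genes, the nearest profiles, and markers at 0; other marker lists are given as sums, and other genes named were chosen after their values were seen. Exact permutation of 2 against 3 libraries cannot go below p = 0.1 and was not used. Whether strand was used in counting is not given, so overlapping and antisense genes are uncertain. Alternatives were DESeq2 1.42.0, other scalings and filters, limma 3.58.1 on log2 FPKM with a pseudocount of 0.1 or 1, a replicate block, and leaving out each library.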

Additional observations from a re-analysis of the deposited data

How the results depend on the processing

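The median log2 fold change of the members was 1.03 and fell to 0.65 with log2(FPKM + 1), which shrinks rare genes; the other settings moved it by less than the spread. Scaling to library size alone, log2(FPKM + 0.1), and log2(FPKM + 1) moved the median of all genes to 0.16, 0.15, and 0.11. In that order, 639, 499, and 120 genes were called higher (422 by TMM) and 57, 51, and 30 lower (109 by TMM). With no limit on the fold change, 1869 rose and 2114 fell. Under these 3 scalings, the genes past the threshold were, in each, 5 lower in the wider mature DC list (8 by TMM), 8 higher in conventional DC identity (4), 4 higher and 3 lower in the partner pathways (2 and 9), and 4 higher and 0 lower in MHC class II (2 and 1). Upper quartile factors gave 7 higher in DC identity. Leaving out each library in turn gave 77 to 176 genes called lower, 3 to 12 mature DC genes lower, 3 to 9 DC identity genes lower, 1 to 3 partners higher and 3 to 13 lower, and 1 to 3 MHC class II genes higher and 0 to 1 lower. The most calls lower came without WT replicate 2 (176), and the fewest without Adam17-/- replicate 1 (77). With the replicate block, 5 mature DC genes, 3 DC identity genes, and 4 partners were lower, and 1 partner and 1 MHC class II gene higher. Deviations of same-numbered libraries from their group means had correlations of -0.124 and -0.0504 for numbers 1 and 2. The deviations of 2 WT libraries always mirror each other, so these values cannot decide whether the numbers pair the samples. The call at the 2-fold limit was lost for Pdcd1lg2 (0.78 without WT replicate 2, 0.99 with the block, 0.73 with log2(FPKM + 1)), Siglec1 (-0.93 with library size, -0.94 and -0.92 on FPKM with 0.1 and 1 added, -0.99 without WT replicate 1, -0.93 without Adam17-/- replicate 1), Cd24a (0.99 without WT replicate 2), Slco5a1 (without either WT replicate or Adam17-/- replicate 1, DESeq2, or on FPKM), and, with log2(FPKM + 1), also for Clec9a (0.83), Esam (0.64), and Il12rb1 (-0.99). Of 58 list genes past the threshold, 23 were lost without some library (22 without Adam17-/- replicate 1, 17 and 15 without replicates 2 and 3, 4 without each WT replicate), with a highest adjusted p of 0.0585 to 0.225: Ankrd33b, Crlf2, Eno2, Il15ra, Nfkb1, Nfkb2, Slco5a1, Tnfrsf9, Tnfsf9, Cadm1, Clec10a, Itgax, Notch2, Ikzf1, Il4ra, Irf5, Jak1, Jak2, Stat5a, C1qa, C1qb, H2-Aa, and H2-DMa. The cause of these moves was not tested. At 3 counts or fewer, as for Ccl17 in WT, depth limits any statement.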
